A study of Mus musculus with 8 samples.

Results

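Transcription factor genes that steer newborn retinal neurons to the photoreceptor fate and then to the rod or cone type were followed in bulk RNA-seq of *Mettl3*-CKO and control mouse retinas. They were taken by gene symbol, *Crx*, *Nrl*, *Nr2e3*, *Otx2*, *Rorb*, *Prdm1*, *Neurod1*, *Thrb*, *Rxrg* and *Mef2d*, and make up 10 of the 54532 genes in the deposited count table. All 10 passed the filter on low counts. The 4 *Mettl3*-CKO samples came from *Six3-Cre*+; *Mettl3* floxed/floxed mice, in which Cre acts in retinal progenitor cells and removes *Mettl3*, the catalytic core of the enzyme complex that writes the RNA mark m6A. According to the study's methods and results the deletion is efficient in the central retina, so peripheral cells in a whole retina may still carry the gene. The 4 control samples came from littermates whose exact genotype, including whether they carried Cre, is not given. The labels put all samples at postnatal day 7, and the study's methods at a day earlier. RNA was extracted from whole retinas, so every value is a mean over all retinal cell types, and fewer cells of a type and less RNA per cell cannot be told apart. Nothing in the labels says whether each sample is 1 mouse, so the p-values measure the spread between these samples.

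Photoreceptors are born from progenitors that leave the cell cycle, and in the mouse most rods are born around birth. OTX2, a homeodomain factor, sets photoreceptor and bipolar precursors apart from other neurons and turns on CRX, a related homeodomain factor that drives most photoreceptor genes. PRDM1 keeps such precursors from becoming bipolar cells. RORB acts upstream of NRL, the leucine zipper factor that selects the rod fate, and NRL turns on NR2E3, a nuclear receptor that activates rod genes and represses cone genes. Precursors without NRL become cones, in which the thyroid hormone receptor THRB and the retinoid X receptor RXRG pattern the opsins. NEUROD1, a basic helix-loop-helix factor, maintains photoreceptors, and MEF2D acts with CRX at photoreceptor enhancers.

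The promoters of the 4 members that were lower in *Mettl3*-CKO retinas by the test used below are shown first, since these genes moved in the same direction and several members bind the motifs searched here. Each is the 250 bases before the RefSeq transcription start in GRCm38.p6, 5′ to 3′ on the gene's strand. Capitals mark TAATCC or its complement GGATTA, the core bound by CRX and OTX2, and CANNTG, the E-box bound by NEUROD1 and other basic helix-loop-helix factors.
Crx, chr7:15879956-15880205, minus strand: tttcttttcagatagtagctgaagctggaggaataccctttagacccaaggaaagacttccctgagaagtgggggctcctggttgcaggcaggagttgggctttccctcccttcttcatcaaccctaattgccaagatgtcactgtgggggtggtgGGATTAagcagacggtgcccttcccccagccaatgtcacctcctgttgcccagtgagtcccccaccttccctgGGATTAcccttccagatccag
Nrl, chr14:55524253-55524502, minus strand: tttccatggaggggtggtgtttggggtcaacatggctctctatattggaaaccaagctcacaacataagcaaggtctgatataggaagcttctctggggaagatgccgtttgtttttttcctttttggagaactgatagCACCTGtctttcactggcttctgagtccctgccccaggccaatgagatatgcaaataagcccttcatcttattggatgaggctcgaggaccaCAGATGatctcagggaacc
Nr2e3, chr9:59950080-59950329, minus strand: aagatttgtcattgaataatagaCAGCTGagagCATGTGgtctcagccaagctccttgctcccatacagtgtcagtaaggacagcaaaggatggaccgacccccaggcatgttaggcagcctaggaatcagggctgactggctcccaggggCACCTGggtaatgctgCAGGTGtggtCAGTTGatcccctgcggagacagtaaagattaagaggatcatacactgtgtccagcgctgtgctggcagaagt
Neurod1, chr2:79456637-79456886, minus strand: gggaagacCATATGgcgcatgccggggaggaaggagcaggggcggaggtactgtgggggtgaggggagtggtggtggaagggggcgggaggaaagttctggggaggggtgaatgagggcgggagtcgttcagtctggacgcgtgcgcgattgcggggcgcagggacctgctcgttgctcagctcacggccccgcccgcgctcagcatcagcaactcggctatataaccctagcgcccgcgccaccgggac

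The *Crx* promoter held 2 CRX cores, which began 94 and 21 bases before the start. The CRX core was in the same window of 2 of the 10 members, *Crx* and *Thrb*, and in 6.38% of the 27025 mouse promoters. An E-box was in 5 members, *Nrl*, *Nr2e3*, *Otx2*, *Prdm1* and *Neurod1*, and in 66.0% of all promoters. The NRL motif TGCTGA was found in *Rorb*, *Neurod1* and *Mef2d* (15.8% of all promoters), and the nuclear receptor motif AGGTCA in *Thrb* alone (13.8%). The PRDM1 core GAAAGT was found in *Neurod1* alone (12.3%), and the NR2E3 motif AAGTCA in none of the members (13.1%). All 6 motifs were searched on both strands, an E-box on one strand is also one on the other, and each hit is a match of letters in this window only. For *Otx2*, *Rorb*, *Thrb* and *Rxrg*, which have several RefSeq starts, the first listed was used. The deposited gene models of all 4 reach further upstream than these starts, those of *Crx* and *Neurod1* to a point within the window shown and those of *Nrl* and *Nr2e3* beyond it.

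Across all genes, edgeR's quasi-likelihood test (p-values adjusted by Benjamini-Hochberg) called 729 of the 17998 genes tested lower in *Mettl3*-CKO retinas (4.05%) and 1168 higher (6.49%) at an adjusted p-value under 0.05. Leaving out 1 sample moved these counts between 185 (without *Mettl3*-CKO replicate 1) and 1289 (without control replicate 1) lower and between 509 and 1882 higher (without the same samples), so the shares of all genes that stand beside the members rest on single samples as well. Total counts ran from 16227095 to 20281517 per sample. *Mettl3*, the targeted gene, was at 21.1, 29.6, 21.3 and 24.3 CPM (read counts scaled to library size by TMM) in the knockout replicates 1 to 4 and at 33.8, 32.5, 29.4 and 29.3 CPM in the corresponding controls. *Mettl3*-CKO replicate 2 overlapped the controls, and the log2 fold change of -0.38 (standard error 0.12) had an adjusted p of 0.0602 in edgeR's test. Its range overlaps that of *Tox4*. Control replicate 4 stood apart with 3359 CPM summed over 15 lens genes, against at most 74.8 CPM in the other samples. Control replicate 1 had the highest rod gene sum of the 8 samples, 5769 CPM, and *Mettl3*-CKO replicates 1 and 2 the lowest, 2743 and 2255 CPM.

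Of the 10 members, *Nr2e3*, *Nrl*, *Crx* and *Neurod1* were downregulated in *Mettl3*-CKO retinas and none was upregulated. Without *Mettl3*-CKO replicate 1 the calls were *Nrl* and *Nr2e3* alone. The 4 calls stand against 4.05% of all tested genes called lower. The same 4 members had all *Mettl3*-CKO samples below all controls, which held for 7.58% of tested genes, and no member had all *Mettl3*-CKO samples above all controls, which held for 9.77%. The deposited table assigns 1057 of the tested genes to a transcription factor family, the members among them, and 44 of these (4.16%) were called lower and 85 (8.04%) higher. The median log2 fold change was -0.26 over the members, 0.04 over all transcription factor genes and -0.01 over all tested genes.

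**Figure D1:**
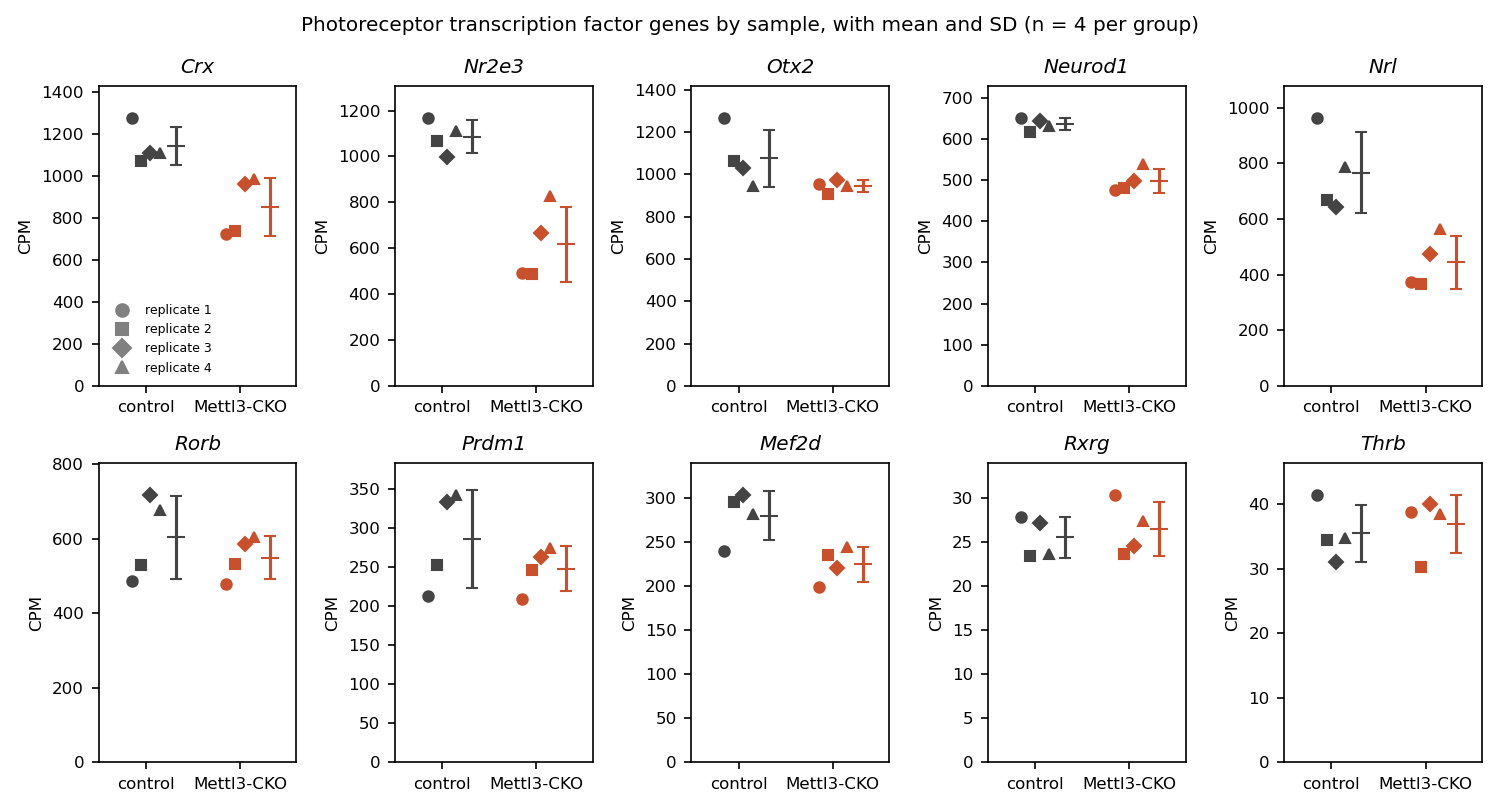
Level (CPM, vertical axes from 0) of the 10 member genes in each control (grey) and *Mettl3*-CKO (orange) sample, with symbols for the replicates and the mean and SD of each group (n = 4) beside them. For *Crx*, *Nr2e3*, *Neurod1* and *Nrl* all 4 *Mettl3*-CKO samples sit below all 4 controls, and for the other members the groups overlap.

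*Nrl* (ENSMUSG00000040632), the rod selector, lies on chromosome 14 from 55518978 to 55524981 on the minus strand of GRCm38. It was at 372, 364, 475 and 562 CPM in the 4 *Mettl3*-CKO retinas, given here and below in the order of replicates 1 to 4, and at 962, 670, 643 and 786 CPM in the controls. The highest *Mettl3*-CKO sample was below the lowest control, and control replicate 1 was the highest of all. The means were 443 ± 94.0 CPM and 765 ± 145 CPM (SD, n = 4 each), so the *Mettl3*-CKO mean was 58.0% of the control mean. The log2 fold change was -0.79 (95% confidence interval -1.13 to -0.45). It stayed called in all 8 fits that left out 1 sample, with log2 fold changes between -0.92 and -0.66 and edgeR adjusted p between 0.00346 and 0.0475, the highest without *Mettl3*-CKO replicate 1.

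*Nr2e3* (ENSMUSG00000032292), which acts downstream of *Nrl* in rods, lies on chromosome 9 from 59942771 to 59960659 on the minus strand. It was at 491, 487, 665 and 828 CPM in *Mettl3*-CKO retinas and at 1167, 1069, 998 and 1112 CPM in the controls. The *Mettl3*-CKO samples spread more widely than the controls, with replicate 4 nearest to them. The means were 618 ± 163 and 1087 ± 71.3 CPM (SD, n = 4 each), a log2 fold change of -0.81 with a standard error of 0.15 (edgeR, adjusted p = 0.00615), and the *Mettl3*-CKO mean was 56.9% of the control mean. All 8 fits without 1 sample called it, with log2 fold changes between -0.99 and -0.71. A pair of non-coding genes that overlap it, *Gm7616* on the other strand and *Gm15507* on the same strand, held at most 89 counts in a sample against 8396 to 21809 for *Nr2e3*.

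*Crx* (ENSMUSG00000041578), on chromosome 7 from 15865947 to 15879968 on the minus strand, had the highest mean CPM of the 4, a value that ignores gene length. Its levels were 726, 741, 962 and 986 CPM in *Mettl3*-CKO retinas and 1278, 1074, 1111 and 1111 CPM in the controls. *Mettl3*-CKO replicates 3 and 4 came close to the lowest control, whereas replicates 1 and 2 were clearly apart. The means were 854 ± 139 and 1143 ± 91.1 CPM (SD, n = 4 each), a log2 fold change of -0.42 (standard error 0.12, 95% confidence interval -0.67 to -0.17, edgeR adjusted p = 0.0374). The call depended on single samples: the adjusted p was 0.139 without *Mettl3*-CKO replicate 1, 0.101 without *Mettl3*-CKO replicate 2, and 0.0703, 0.0714 and 0.0628 without control replicates 2, 3 and 4. The log2 fold change stayed between -0.50 and -0.34 in these fits.

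*Neurod1* (ENSMUSG00000034701), on chromosome 2 from 79452521 to 79456751 on the minus strand, had the tightest values among the called members. It was at 476, 480, 497 and 538 CPM in *Mettl3*-CKO retinas and at 651, 617, 642 and 632 CPM in the controls. The 2 groups were separated by more than either group's own range. The means were 498 ± 28.5 and 635 ± 14.7 CPM (SD, n = 4 each), a log2 fold change of -0.35 (standard error 0.08, 95% confidence interval -0.52 to -0.18, edgeR adjusted p = 0.0148). Of the 8 fits without 1 sample, that without *Mettl3*-CKO replicate 1 alone lost the call (edgeR, adjusted p = 0.0582). *Cerkl*, a protein-coding gene that overlaps *Neurod1* on the same strand, held 241 to 578 counts per sample against 8285 to 12248 for *Neurod1*.

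*Mef2d* (ENSMUSG00000001419, chromosome 3, 88142372 to 88172086, plus strand), the co-factor of CRX, was just outside the threshold. It was at 199, 235, 220 and 244 CPM in *Mettl3*-CKO retinas and at 240, 295, 303 and 281 CPM in the controls. The groups overlapped through control replicate 1, which was below *Mettl3*-CKO replicate 4. The log2 fold change was -0.32 (95% confidence interval -0.52 to -0.11, edgeR adjusted p = 0.0522). DESeq2 gave an adjusted p of 0.0187 for *Mef2d*, limma voom with sample quality weights 0.00263, and edgeR without control replicate 1 gave 0.00414.

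*Otx2*, *Rorb* and *Prdm1* did not pass the test either. *Otx2* (ENSMUSG00000021848, chromosome 14, 48657677 to 48673819, minus strand) was at 955, 907, 975 and 946 CPM in *Mettl3*-CKO retinas and at 1265, 1063, 1028 and 944 CPM in the controls. The *Mettl3*-CKO samples lay within 1 narrow band, and control replicate 4 fell inside it. The log2 fold change of *Otx2* was -0.18 (95% confidence interval -0.40 to 0.03, edgeR adjusted p = 0.268), an interval that still holds a decrease of the size seen for *Neurod1*.

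*Rorb* (ENSMUSG00000036192, chromosome 19, 18930605 to 19111196, minus strand) was at 477, 532, 585 and 603 CPM in *Mettl3*-CKO retinas and at 487, 529, 718 and 678 CPM in the controls. *Prdm1* (ENSMUSG00000038151, chromosome 10, 44437177 to 44528501, minus strand) was at 209, 246, 262 and 274 CPM in *Mettl3*-CKO retinas and at 213, 253, 333 and 342 CPM in the controls. Both genes had 2 controls, replicates 1 and 2, within the *Mettl3*-CKO range and 2 above it. The log2 fold changes were -0.13 for *Rorb* (95% confidence interval -0.41 to 0.14, edgeR adjusted p = 0.573) and -0.20 for *Prdm1* (-0.51 to 0.11, adjusted p = 0.427). Both intervals also hold a decrease of the size seen for *Neurod1*. Control replicate 1 was thus the lowest control for *Rorb*, *Prdm1* and *Mef2d*, while it was the highest control for each of the other 7 members.

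The 2 nuclear receptors of cones were the least abundant members and the only ones with a log2 fold change above 0. *Thrb* (ENSMUSG00000021779, chromosome 14, 17660261 to 18038090, plus strand) was at 38.8, 30.3, 40.1 and 38.5 CPM in *Mettl3*-CKO retinas and at 41.5, 34.4, 31.1 and 34.8 CPM in the controls. *Rxrg* (ENSMUSG00000015843, chromosome 1, 167598384 to 167639623, plus strand) was at 30.4, 23.7, 24.6 and 27.4 CPM in *Mettl3*-CKO retinas and at 27.9, 23.5, 27.2 and 23.7 CPM in the controls. The groups overlapped almost fully for both genes. The log2 fold changes were 0.06 for *Thrb* (95% confidence interval -0.19 to 0.30, edgeR adjusted p = 0.811) and 0.05 for *Rxrg* (-0.18 to 0.29, adjusted p = 0.822). Whole-gene counts sum all transcripts of *Thrb*, so its cone isoform was not measured apart. Genes that overlap *Otx2*, *Mef2d* and *Thrb* held at most 113, 42 and 4 counts in a sample.

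**Figure D2:**
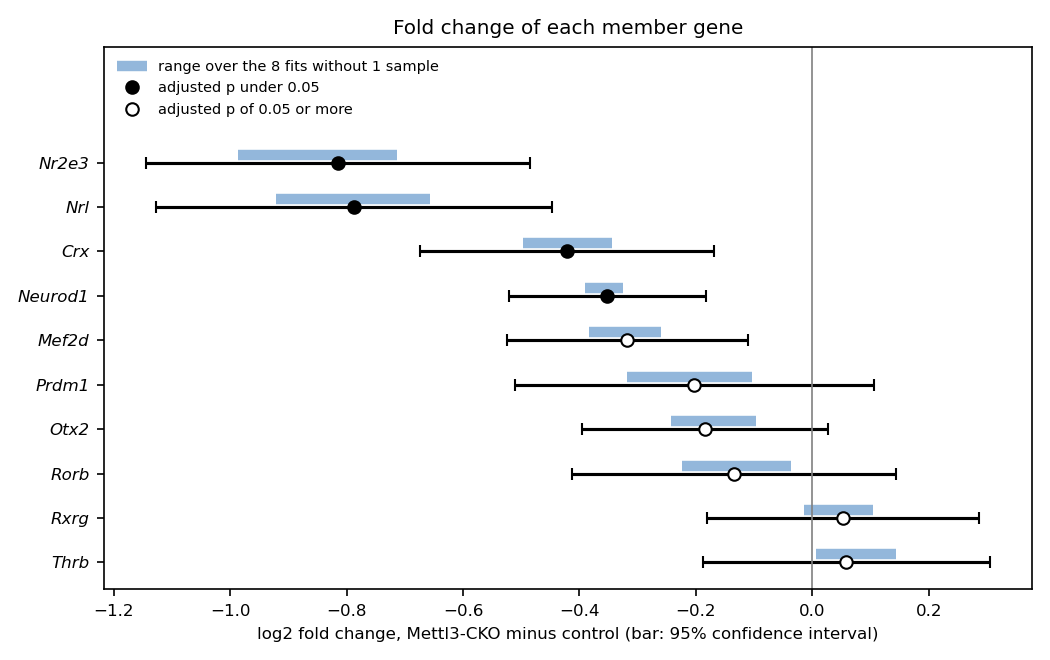
Log2 fold change (*Mettl3*-CKO minus control, horizontal axis) of each member with its 95% confidence interval (black bars), filled where the adjusted p was under 0.05, and the range over the 8 fits that each left out 1 sample (blue). *Nr2e3* and *Nrl* lie lowest at -0.81 and -0.79, and the blue range crosses 0 for *Rxrg* alone.

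Ratios between members were compared within samples, since a ratio of 2 genes of the same sample does not depend on the sample's scaling. The log2 ratio of *Nrl* to *Crx* was -0.97, -1.02, -1.02 and -0.81 in *Mettl3*-CKO retinas and -0.41, -0.68, -0.79 and -0.50 in the controls. The groups did not overlap, though *Mettl3*-CKO replicate 4 and control replicate 3 nearly met. The difference of the means was -0.36 (two-sided exact permutation test, n = 4 each, p = 0.0286). That p is the smallest that 4 against 4 samples allow, and it became 0.143 after Benjamini-Hochberg adjustment over the 5 ratios tested. A lone ratio at this smallest p cannot pass the threshold after the adjustment, so the adjusted value does not decide whether this ratio differed. The *Nr2e3* to *Nrl* ratio was 0.47 ± 0.07 in *Mettl3*-CKO and 0.52 ± 0.18 in control samples (SD, n = 4 each; exact permutation test, p = 0.6, adjusted p = 0.75). The *Otx2* to *Crx* ratio was 0.16 ± 0.22 and -0.09 ± 0.11 (exact permutation test, n = 4 each, p = 0.114, adjusted p = 0.286). For this ratio *Mettl3*-CKO replicates 1, 2 and 3, at 0.39, 0.29 and 0.02, were above all controls, and replicate 4, at -0.06, was not. The *Neurod1* to *Crx* and *Rxrg* to *Thrb* ratios differed by 0.08 and -0.01 (exact permutation test, n = 4 each, adjusted p = 0.714 and 1.0).

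**Figure D3:**
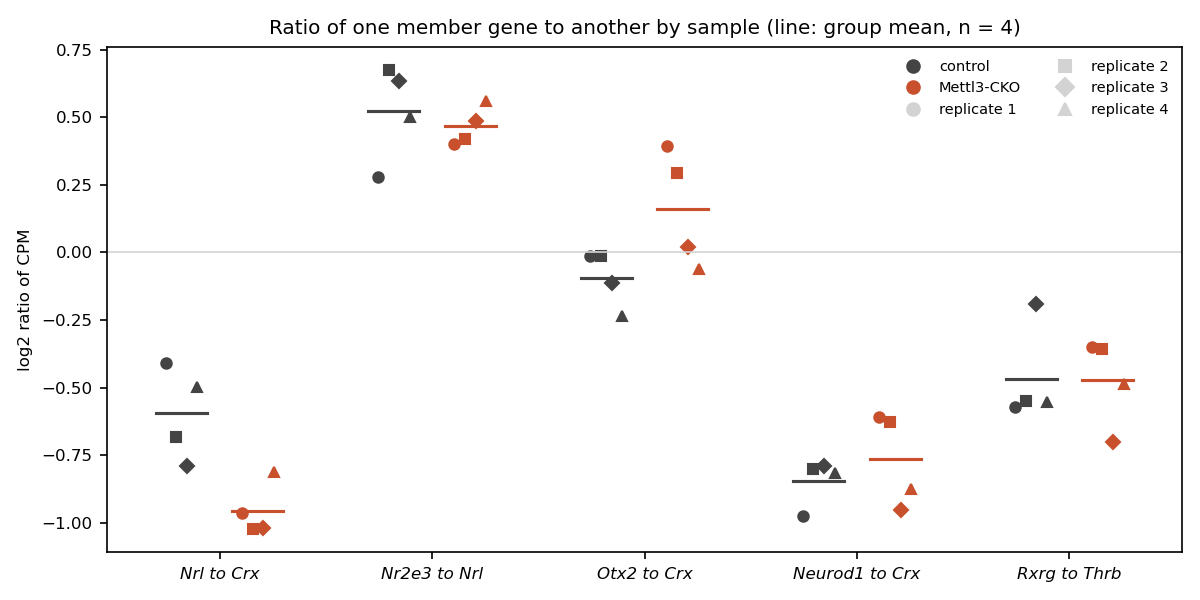
Log2 ratio of CPM (vertical axis) for the 5 pairs of member genes in each control (grey) and *Mettl3*-CKO (orange) sample, with symbols for the replicates and lines for the group means (n = 4). The *Nrl* to *Crx* ratio was between -1.02 and -0.81 in *Mettl3*-CKO and between -0.79 and -0.41 in control samples, and the other ratios overlap.

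Within control retinas the members spanned a wide range of levels. In FPKM, CPM divided by the deposited gene length in kilobases, the control means were 362 ± 28.8 for *Crx*, 323 ± 21.2 for *Nr2e3*, 255 ± 32.3 for *Otx2*, 233 ± 5.38 for *Neurod1* and 134 ± 25.5 for *Nrl* (SD, n = 4 each). *Rorb*, *Prdm1* and *Mef2d* followed at 54.4 ± 10.1, 51.1 ± 11.2 and 46.7 ± 4.71 FPKM, and *Rxrg* and *Thrb* at 11.1 ± 1.01 and 4.79 ± 0.59 FPKM (SD, n = 4 each). Neighbours in the order from *Crx* to *Neurod1* overlapped in their control ranges, as did *Rorb*, *Prdm1* and *Mef2d*, while the ranges did not overlap between *Neurod1* and *Nrl*, *Nrl* and *Rorb*, *Mef2d* and *Rxrg*, or *Rxrg* and *Thrb*. Only 44 tested genes had a higher control FPKM than *Crx*. In *Mettl3*-CKO retinas *Nr2e3* (183 FPKM) ranked behind *Otx2* (224 FPKM), and the other places were as in controls. The deposited length merges all annotated transcripts, 5689 bases for *Nrl* and 5985 for *Mef2d*, whose principal GENCODE transcripts are 2504 and 1767 bases long. That of *Mef2d* holds only 12 bases of 3′ UTR, so the level of *Mef2d* by principal length is uncertain. With principal lengths, an alternative chosen after seeing the data, the control order began with *Otx2* at 629, *Nr2e3* at 533, *Crx* at 392 and *Nrl* at 306 FPKM, and 3 of the 10 members kept their place.

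Since METTL3 writes m6A, often in the sequence GGACT close to stop codons, the principal transcripts were searched for that sequence within 200 bases on either side of the stop codon. Where a transcript ends sooner the search stopped at its end, and that of *Mef2d* has a 3′ UTR of only 12 bases. GGACT was in this window in 5 of the 10 members, against 39.2% of the 14258 tested genes with a principal transcript. Of the downregulated members *Crx* alone held it, with 2 sites, and *Nrl*, *Nr2e3* and *Neurod1* had none in this window. *Nr2e3* had no GGACT anywhere in its 2037 bases. The site nearest the stop codon is shown with 10 bases on either side, with GGACT in capitals, from GENCODE M21 on GRCm38.
Crx: tggaccctctGGACTacaaagatca
Rorb: gtgttcatggGGACTtaaggaaaat
Prdm1: aattaaagaaGGACTccaatgttac
Thrb: aagtatttgaGGACTaaatttactg
Mef2d: atggacggggGGACTttgggcccac
The sites of *Crx* and *Mef2d* lie in the coding sequence, with their first base 42 and 102 bases before the end of the stop codon. That of *Thrb* begins 6 bases before this end, so its last base is the first base of the stop codon. Those of *Rorb* and *Prdm1* lie in the 3′ UTR, 66 and 150 bases after the end of the stop codon. These are matches of letters, and m6A was not measured in these samples. The study mapped m6A in other mouse retinas by MeRIP-seq, and those data were not analysed here.

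Genes on which the members act were then compared. Of 20 rod genes, all tested, 8 were downregulated and none was upregulated, beside 4.05% and 6.49% of all tested genes, and the list median was -0.53. *Pde6b*, a subunit of the rod phosphodiesterase, was at 80.6, 91.2, 132 and 175 CPM in *Mettl3*-CKO retinas and at 374, 235, 196 and 213 CPM in the controls (log2 fold change -1.09, edgeR adjusted p = 0.015). *Sag*, rod arrestin, had a log2 fold change of -0.83 (adjusted p = 0.0187), *Gnat1*, rod transducin alpha, of -0.98 (adjusted p = 0.0284), *Rom1*, a disc rim protein, of -0.67 (adjusted p = 0.0307) and *Gnb1*, the transducin beta subunit, of -0.43 (adjusted p = 0.0325), all by edgeR. The rod calls rested on single samples: their number was 0 without *Mettl3*-CKO replicate 1, 1 without replicate 2, 2 without replicate 3, 2 without control replicate 2 and 2 without control replicate 4.

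Of 15 cone genes, 14 were tested, 2 were downregulated and none was upregulated, with a median of -0.02. *Opn1mw*, the middle-wavelength opsin that THRB turns on later in development, had at most 6 counts in a sample and was not tested. *Gnb3*, cone transducin beta, had a log2 fold change of -0.41 (edgeR, adjusted p = 0.0306) and *Pde6h*, an inhibitory subunit of the cone phosphodiesterase, of -0.69 (adjusted p = 0.0431). *Opn1sw*, the short-wavelength opsin, was at 156 to 200 CPM in *Mettl3*-CKO and 165 to 206 CPM in control samples, and *Gngt2*, cone transducin gamma, at 224 to 328 and 231 to 271 CPM. Both cone calls were lost without *Mettl3*-CKO replicate 1, without *Mettl3*-CKO replicate 2 and without control replicate 4, and 1 was lost without control replicate 2.

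**Figure D4:**
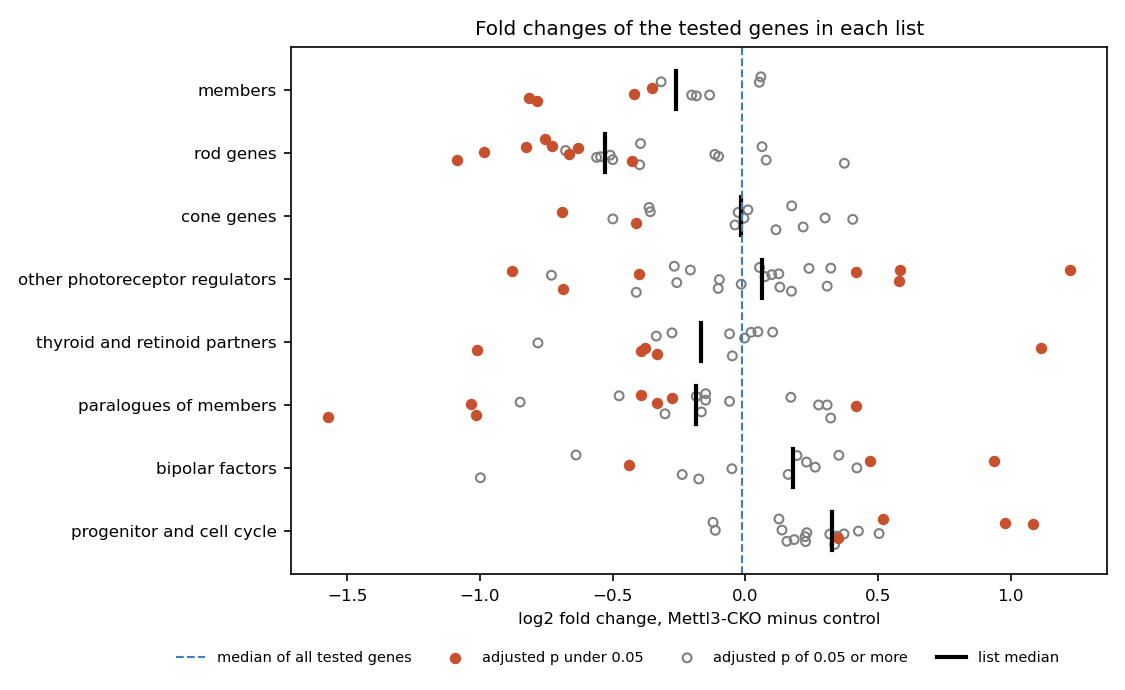
Log2 fold change (*Mettl3*-CKO minus control, horizontal axis) of every tested gene in the members and 7 further lists, filled where the adjusted p was under 0.05, with list medians (black) and the median of all tested genes (dashed). The rod genes have the lowest list median (-0.53) and the progenitor and cell cycle genes the highest (0.33).

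Among 24 other regulators of photoreceptor development, all tested, 3 were downregulated and 4 upregulated, with a median of 0.06. *Samd11*, a co-regulator of photoreceptor genes, was at 213, 266, 311 and 420 CPM in *Mettl3*-CKO retinas and at 518, 576, 523 and 609 CPM in the controls, so the groups did not overlap (log2 fold change -0.88, edgeR adjusted p = 0.00612). *Pias3*, which modifies NR2E3 in rods, had a log2 fold change of -0.40 (edgeR, adjusted p = 0.0198). *Pou2f2*, a POU domain factor, was at 49.6, 45.6, 33.6 and 34.4 CPM in *Mettl3*-CKO retinas and at 13.1, 20.5, 21.1 and 15.2 CPM in the controls (log2 fold change 1.22, edgeR adjusted p = 0.00117). *Nr2f1*, a nuclear receptor that patterns cone opsins, rose by 0.58 (adjusted p = 0.00519) and *Neurod4*, a helix-loop-helix factor also of bipolar and amacrine precursors, by 0.42 (adjusted p = 0.0467), both log2 by edgeR. Of this list 1 gene was called lower without *Mettl3*-CKO replicate 1, *Mettl3*-CKO replicate 3 or control replicate 2, and 6 without control replicate 1. Leaving out *Mettl3*-CKO replicates 1, 3 or 4, or control replicates 2 or 3, brought the higher calls to 2.

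Of 15 partners of the thyroid and retinoid receptors, 14 were tested, 4 were downregulated and 1 upregulated, with a median of -0.17. *Crym*, a thyroid hormone-binding protein that is also a Müller glial marker, was at 149, 160, 205 and 204 CPM in *Mettl3*-CKO retinas and at 507, 330, 301 and 311 CPM in the controls (log2 fold change -1.01, edgeR adjusted p = 0.00282). *Rxrb* and *Rxra*, relatives of *Rxrg* that pair with THRB and other nuclear receptors, fell by 0.33 and 0.39 on the log2 scale (adjusted p = 0.0205 and 0.0304), and *Ncoa2*, a receptor co-activator, by 0.38 (adjusted p = 0.0255), all by edgeR. *Thra*, the most abundant thyroid receptor gene here, had a log2 fold change of -0.06 (adjusted p = 0.686). *Dio3*, the deiodinase that inactivates thyroid hormone, was called higher by a narrow margin (log2 fold change 1.11, edgeR adjusted p = 0.0481), and under RLE size factors, upper-quartile factors or total counts only the list had 0 genes called higher. Without *Mettl3*-CKO replicate 1, *Mettl3*-CKO replicate 3 or control replicate 3, 1 gene of the list was called lower, and 2 were without control replicate 2 or 4.

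The 19 paralogues of the members gave 6 lower and 1 higher calls, with a median of -0.18, and *Rxra*, *Rxrb* and *Neurod4* of these also stand in the lists above. *Neurod2*, a relative of *Neurod1* in postmitotic neurons, was at 8.74, 14.6, 9.35 and 15.5 CPM in *Mettl3*-CKO retinas and at 20.5, 26.6, 26.1 and 25.4 CPM in the controls (log2 fold change -1.03, edgeR adjusted p = 0.00434). *Neurod6* and *Mafa*, a relative of *Nrl*, had log2 fold changes of -1.57 and -1.02 (edgeR, adjusted p = 0.0102 and 0.0104) at mean control levels of only 1.64 and 4.44 CPM. Within the NeuroD family *Neurod1*, *Neurod2* and *Neurod6* were thus called lower and *Neurod4* higher, though the call of *Neurod4* was lost with a filter at a mean of 1 CPM and without *Mettl3*-CKO replicate 1, 3 or 4 or control replicate 2, 3 or 4. Leaving out *Mettl3*-CKO replicate 1 or 3, or control replicate 2 or 3, brought the lower calls to 3.

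The genes whose log2 CPM followed each called member most closely over the 8 samples were named as a description, since they were picked as the highest of 17998 correlations. For *Nrl* these were *Nxnl2*, a nucleoredoxin-like gene of photoreceptors, *Setdb2* and *Pcare*, a photoreceptor cilium actin regulator, each with a Pearson r of 0.99. For *Nr2e3* they were *Llgl2*, *Pias3* and *Agpat3* (each 0.99), and for *Crx* they were *Tub*, *Gm11342* and *Vmn2r89* (each 0.99), the last 2 at means under 2 CPM. For *Neurod1* they were *Rufy1* (0.997), *Zfp385b* and *Pdk2* (each 0.99).

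Some markers of other cells in the retina differed between the groups. Of 20 progenitor and cell cycle genes, 4 were upregulated and none was downregulated, with a median of 0.33, and their summed level was 4488 to 5973 CPM in *Mettl3*-CKO against 3312 to 4458 CPM in control samples. *Mki67*, a gene of dividing cells, was at 1092, 927, 873 and 728 CPM in *Mettl3*-CKO retinas and at 405, 509, 438 and 484 CPM in the controls. It is part of the summed level, and without it the sums of the groups overlap. *Fgf15* rose by 1.08, *Lhx2* by 0.52 and *Mcm2* by 0.35 on the log2 scale (edgeR, adjusted p = 0.00612, 0.0312 and 0.0481). The other 16 genes were not called. Among them were *Top2a*, *Pcna*, *Ccnb1* and *Ccna2*, with log2 fold changes of 0.35, 0.23, 0.23 and 0.18 (edgeR, adjusted p = 0.0887, 0.151, 0.22 and 0.268). In 2 genes of the list, *Sfrp2* at -0.11 among them, the log2 fold change was below 0. The calls of this list numbered 2 without *Mettl3*-CKO replicate 1 or 2 or control replicate 4, 8 without *Mettl3*-CKO replicate 4 and 7 without control replicate 1. *Mettl3*-CKO replicate 4, which had the highest *Nrl*, *Nr2e3* and *Crx* of its group, had the lowest *Mki67* and the lowest progenitor sum of its group. Of 17 bipolar genes, 14 were tested, with 2 called higher, *Pcp2* among them, and *Prkca* lower (summed level 771 to 880 against 611 to 737 CPM). Both higher bipolar calls were lost without *Mettl3*-CKO replicate 1 and 1 was without *Mettl3*-CKO replicate 3 or control replicate 2, and that of *Prkca* was lost in 5 of the 8 fits without 1 sample. The part of these markers in the values of the members was not tested.

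Markers of further cell types were counted in the same way. Among 12 Müller glial genes, 10 were tested, *Rlbp1* and *Crym* were lower and *Glul* higher (sum 2322 to 2532 against 2424 to 3084 CPM), and without control replicate 1 the higher calls were 2. Of 16 amacrine, horizontal and ganglion cell genes *Slc6a9* was lower and *Pou4f1* higher (sum 1235 to 1507 against 1373 to 1515 CPM), with 3 lower and 2 higher without control replicate 1. In the retinal pigment epithelium list 4 of 11 tested genes were lower and *Rgr* higher, the sum was 79.3 to 103.8 against 104.6 to 139.0 CPM, and the defining marker *Rpe65* was under the filter. The lower calls of that list were 1 without *Mettl3*-CKO replicate 1 and 2 without *Mettl3*-CKO replicate 4 or control replicate 2, and the list had a higher call in 1 of the 8 fits without 1 sample, that without control replicate 1. Of 10 tested blood and vessel genes 8 were lower, 4 without *Mettl3*-CKO replicate 1 and 5 without *Mettl3*-CKO replicate 3. The sum was 538 to 643 against 540 to 672 CPM. It came nearly all from *Kdr*, which was not called (log2 fold change 0.02, edgeR adjusted p = 0.921), so it tells little of the 8 lower genes. The lens list gave 5 lower calls of 9 tested, at 10.5 to 26.0 CPM in *Mettl3*-CKO and up to 3359 CPM in control samples. The lens calls were 0 without control replicate 4, 0 without any 1 of the *Mettl3*-CKO samples, 8, 8 and 9 without control replicates 1, 2 and 3, and 0 by DESeq2, limma voom or with the replicate block. No microglial gene of 9 was called (78.8 to 118 against 44.6 to 145 CPM), and 4 were higher without control replicate 1 and 6 by limma voom. *Nrl*, *Nr2e3* and *Neurod1* stayed called without control replicate 4, the sample rich in lens RNA, and all 5 of *Nrl*, *Nr2e3*, *Crx*, *Neurod1* and *Mef2d* were called without control replicate 1, which had the highest levels of *Rlbp1*, *Crym* and *Cdh5*.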

How the data were processed

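The authors' methods state that total RNA from whole retinas was made into NEBNext Ultra libraries, sequenced paired-end, mapped to GRCm38 with Hisat2 and counted per gene with featureCounts. The deposited values are raw counts per gene, read as such because they are whole numbers whose totals differ between samples. The gene lengths deposited beside them were used for FPKM. The annotation release and the use of strand in counting are not given in the sources used here, so genes that overlap another are uncertain. Samples were grouped and matched to columns by their titles.

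Counts of 17998 genes kept by filterByExpr were scaled by TMM and tested in R 4.3.3 with edgeR 4.0.16 (quasi-likelihood, Benjamini-Hochberg, threshold 0.05). A standard error is the absolute log2 fold change divided by the square root of F. Log2 CPM used a prior count of 2. DESeq2 1.42.0, limma 3.58.1 and other scalings, filters and left-out samples were alternatives. The test was checked on counts drawn for the same comparison and 17998 genes, with changed genes taken above a mean of 20 counts: 85 of 100 genes changed 2-fold and 99 of 100 changed 4-fold were called, with 17 unchanged genes. Every member differed by less than 2-fold, a size of change that this check did not cover. Exact permutation tests used SciPy 1.17.1. At this depth 3 counts, the floor for detection, are at most 0.185 CPM, and floors cover counting error only. No 2 samples were close enough to be 1 library.

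The members and gene lists were chosen with earlier results of these data known. Named genes are the members, *Mettl3*, up to 4 called genes of each list by smallest adjusted p with its 2 of highest FPKM, and the 3 closest genes to each called member; *Opn1sw*, *Opn1mw* and the genes named for markers were added after their values were seen. Some genes of the lists are counted but not reported here by name. Promoters are from RefSeq (GRCm38.p6, all 10 members matched). Protein sequences, single-cell RNA-seq and MeRIP-seq were not analysed here.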

Additional observations from a re-analysis of the deposited data

Results flagged for a closer look

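Each of 30 sets of 4 samples (10 members and 5 ratios in both groups) was examined for a sample far from the other 3, by Dixon's criterion at the 95% level, and 3 were found where about 1.5 would be by chance (1 in 20). *Thrb* was at 4.93 log2 CPM in *Mettl3*-CKO replicate 2, while the rest of its group lay between 5.27 and 5.33. The log2 ratio of *Neurod1* to *Crx* was -0.97 in control replicate 1, against -0.81 to -0.79 in the other controls. The log2 ratio of *Rxrg* to *Thrb* was -0.19 in control replicate 3, against -0.57 to -0.55 in the other controls.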

How the results depend on the processing

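*Nrl* and *Nr2e3* stayed called lower in all 17 alternatives, and no member was called higher in any. With all samples kept, log2 fold changes ran from -0.79 to -0.63 for *Nrl*, -0.85 to -0.76 for *Nr2e3*, -0.43 to -0.35 for *Crx*, -0.36 to -0.33 for *Neurod1* and -0.38 to -0.31 for *Mef2d*. *Mef2d* was also called by DESeq2, limma voom, a mean CPM of at least 1 and the replicate block. *Rxrg* alone changed sign, to -0.014 without *Mettl3*-CKO replicate 1, and ranged from -0.014 to 0.10 over the fits without 1 sample.

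At an adjusted p under 0.01 the lower calls were 2 for the members, 0 for rod genes, 0 for cone genes, 1 for other regulators, 1 for thyroid and retinoid partners, 1 for paralogues, 0 for bipolar genes and 147 of all genes, and the higher calls 2 for other regulators, 0 for partners, 0 for paralogues, 0 for bipolar genes, 2 for progenitor genes and 439 of all genes. Limma voom gave 1568 lower and 2142 higher calls over all genes, 7 lower other regulators, 2 lower bipolar, 2 higher cone, 2 higher paralogue and 7 higher progenitor genes. DESeq2 gave 4 lower cone and 7 higher progenitor genes. No filter on low counts gave 5 lower other regulators and 8 higher progenitor genes. A mean CPM of at least 1 gave 0 higher paralogues. RLE factors, upper-quartile factors, total counts only, a mean CPM of at least 1 and the replicate block each gave 0 higher partners. With the length of the principal transcript 3 of 10 members kept their place by FPKM.

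Leaving out 1 sample at a time, lower calls ranged from 2 to 5 for the members, 0 to 9 for rod, 0 to 3 for cone, 1 to 6 for other regulators, 1 to 6 for partners, 3 to 6 for paralogues, 0 to 1 for bipolar genes and 185 to 1289 for all genes. Higher calls ranged from 0 to 1 for cone, 2 to 5 for other regulators, 0 to 1 for partners, 0 to 1 for paralogues, 0 to 2 for bipolar, 2 to 8 for progenitor genes and 509 to 1882 for all genes. With 4 samples against 3 the ratio tests could not reach the threshold, and their differences moved by less than 1 SD. The causes of these shifts were not tested.

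The groups share replicate numbers in the labels but are different animals. Deviations of same-numbered samples from their group means correlated at -0.11, 0.22, -0.11 and 0.25, with no steady sign. Whether same-numbered samples shared a litter or batch was not tested. With the replicate block in the fit, 5 members and 5 other regulators were called lower. At these depths counting error is small for the members (at least 383 counts each), and the spread between 4 samples per group limits the calls.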
